A study of Mus musculus with 9 samples.

Results

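Histone acetylation is set by enzymes that write it and enzymes that erase it, and 9 genes that encode such enzymes were examined here, of 22236 protein-coding genes in the annotation. They were taken by name. The writers were Ep300 and Crebbp, which encode the coactivators p300 and CBP, and Kat2b, which encodes PCAF. The erasers were Hdac1, Hdac2 and Hdac3 of class I and Hdac4, Hdac7 and Hdac9 of class IIa. The measurement was H3K27ac, acetylation of lysine 27 of histone H3, over the genes themselves, so the values describe the chromatin state of these loci and not the activity of the enzymes or their RNA.

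H3K27ac ChIP-seq had been performed on naive CD8+ T cells sorted from the spleen as GFP+ TCRbeta+ CD62Lhi CD44lo-med cells. WT cells came from hCD2-Cre+ Rosa26-GFP Tcf7+/+ Lef1+/+ mice (4 H3K27ac samples and 1 input), and dKO cells from mice with the same transgene and reporter whose alleles were Lef1 fl/fl and Tcf7 fl/fl, labelled Tcf1-/-Lef1-/- (3 H3K27ac samples and 1 input). Both groups thus carried the Cre transgene and the GFP reporter, on the C57BL/6 background, and the mice were 6 to 12 weeks old. The hCD2-Cre transgene acts mostly in mature T cells of the periphery, and because its excision is not complete, the GFP allele marked the cells in which it had acted. The deposited values were 2 lists of H3K27ac-enriched islands, 1 for each genotype, called on the pooled replicates. There was therefore 1 value for each genotype, no difference below has a replicate check, no test was possible, and the 95% intervals are exact Clopper-Pearson intervals that cover counting error only.

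p300 and CBP are the principal writers of H3K27ac at enhancers and promoters, whereas PCAF is best known for acetylating lysine 9 of the same histone. HDAC1 and HDAC2 are the catalytic subunits of the Sin3, NuRD and CoREST corepressor complexes, and HDAC3 works in the NCoR and SMRT complexes. The class IIa enzymes HDAC4, HDAC7 and HDAC9 have little catalytic activity of their own, move between nucleus and cytoplasm with signalling, and act with HDAC3 and MEF2 factors. In T cells, HDAC7 is known for its role in thymocytes. Tcf1 and Lef1, the factors missing in dKO cells, bind the DNA core ATCAAAG and have themselves been described as carrying deacetylase activity.

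The promoters of the genes differed in base composition, and 7 of them are shown so that CG-rich and CG-poor starts can be seen beside the H3K27ac values below, which did not follow this division in every gene. Each line gives the 200 bases upstream of the 5'-most annotated start in the mm9 build (NCBIM37 assembly), written 5' to 3' on the strand of the gene, with CG dinucleotides in capitals. The stretches are chr16:4213405-4213604 on the minus strand for Crebbp, chr15:81415581-81415780 on the plus strand for Ep300, chr10:36694150-36694349 on the plus strand for Hdac2, chr4:129219958-129220157 on the minus strand for Hdac1, chr17:53705986-53706185 on the plus strand for Kat2b, chr1:94044971-94045170 on the minus strand for Hdac4 and chr12:35213755-35213954 on the minus strand for Hdac9.
Crebbp: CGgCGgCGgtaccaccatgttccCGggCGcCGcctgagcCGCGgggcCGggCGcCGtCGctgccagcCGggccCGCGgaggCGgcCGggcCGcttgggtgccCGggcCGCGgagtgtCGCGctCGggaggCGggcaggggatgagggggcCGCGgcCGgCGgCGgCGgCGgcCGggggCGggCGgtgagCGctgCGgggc
Ep300: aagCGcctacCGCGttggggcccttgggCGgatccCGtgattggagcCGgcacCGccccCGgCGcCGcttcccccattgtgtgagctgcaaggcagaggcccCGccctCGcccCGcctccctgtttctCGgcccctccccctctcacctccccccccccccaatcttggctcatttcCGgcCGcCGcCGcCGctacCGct
Hdac2: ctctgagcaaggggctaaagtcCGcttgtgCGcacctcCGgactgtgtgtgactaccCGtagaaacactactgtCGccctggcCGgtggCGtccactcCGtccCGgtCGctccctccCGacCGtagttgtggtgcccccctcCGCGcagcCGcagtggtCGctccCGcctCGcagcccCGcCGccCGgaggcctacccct
Hdac1: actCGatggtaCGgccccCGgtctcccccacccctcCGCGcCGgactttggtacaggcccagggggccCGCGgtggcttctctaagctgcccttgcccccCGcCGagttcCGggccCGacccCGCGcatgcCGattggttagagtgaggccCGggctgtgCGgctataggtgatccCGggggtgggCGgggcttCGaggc
Kat2b: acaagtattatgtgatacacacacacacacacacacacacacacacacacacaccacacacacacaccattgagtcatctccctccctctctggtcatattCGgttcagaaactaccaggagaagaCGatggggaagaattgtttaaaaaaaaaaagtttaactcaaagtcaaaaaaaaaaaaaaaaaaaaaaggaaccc
Hdac4: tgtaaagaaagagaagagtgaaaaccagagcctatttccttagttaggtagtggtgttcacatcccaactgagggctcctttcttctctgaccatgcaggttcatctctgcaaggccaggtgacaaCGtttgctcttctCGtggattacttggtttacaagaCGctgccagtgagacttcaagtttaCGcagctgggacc
Hdac9: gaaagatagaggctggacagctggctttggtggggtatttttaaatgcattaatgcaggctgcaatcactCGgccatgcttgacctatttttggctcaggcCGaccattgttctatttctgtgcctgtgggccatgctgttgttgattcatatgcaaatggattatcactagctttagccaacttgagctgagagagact

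Crebbp held 37 CG dinucleotides in these 200 bases, Hdac2 held 21, and Ep300 and Hdac1 held 20 each, whereas Hdac4 held 4 and Kat2b and Hdac9 held 2 each. Over the window from 250 bases before to 50 after the start, the ratio of observed to expected CG was 1.02 for Crebbp, 1.01 for Hdac2, 0.79 for Ep300, 0.83 for Hdac1, 0.78 for Hdac3 and 0.72 for Kat2b. It was 0.31 for Hdac4, 0.28 for Hdac7 and 0.20 for Hdac9. The median was 0.72 over the 13024 protein-coding genes whose 5'-most start had islands of both lists within 1 kb and 0.24 over the 8046 with none. Hdac7 also has annotated starts further into the gene with a high CG content, up to a ratio of 1.09. The core ATCAAAG, searched on both strands (also as CTTTGAT), was found at 0 of the 45 annotated starts of the 9 genes, and 3.48% of all protein-coding genes hold it in the same window at their 5'-most start.

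The island counts summed to 82668007 in WT and to 57665047 in dKO, and CPM below stands for counts scaled to these totals. The dKO list held more but narrower islands, with a median width of 3 kb against 3.6 kb in WT. All 8 T cell genes examined (Cd8a, Cd8b1, Cd3e, Cd3d, Cd3g, Cd2, Cd5 and Lck) had promoter islands in both lists. Their sum was 1796 CPM in WT and 1611 in dKO, with an island shared by neighbouring genes counted for each. Cd8a shared its WT island with Cd8b1, Cd3d its WT island with Cd3g, and Cd3e its dKO island with Cd3d. Single genes were past 1.5-fold both ways by promoter counts (Cd8a at a log2 ratio of -1.43 and Cd3e at 1.39). The WT island of Cd8a was 65 kb wide, but its dKO island only 27.2 kb. Per covered kb the Cd8a ratio was -0.17, and over its window it was -0.26. Cd3e stayed past 1.5-fold by these measures, at 0.62 and 0.91. Having an island did not tell cell types apart, and 62.9% of all protein-coding genes had a promoter island in WT and 63.3% in dKO. Promoter islands were also found for 4 of 5 B cell genes in WT and 5 in dKO (284 and 409 CPM in sum), for 3 of 4 NK genes in both (172 and 231), and for 4 of 6 myeloid genes in WT and 6 in dKO (116 and 107), while Ncr1, Siglech, Hba-a1 and Hbb-b1 had none in either list. In the B cell sum, Cd79b held 84.7 CPM on 26.6 kb in WT and 190 on 71.2 kb in dKO, or -0.26 per covered kb. In the NK sum, Nkg7 held 102 on 27.4 kb and 152 on 45.8 kb, or -0.16 per covered kb. By promoter counts, Cd79a (-0.21) and Klrd1 (-0.49) were lower in dKO. Other cells in the sort would add to every count below, and their part was not tested. The targeted genes kept islands in dKO, with a log2 ratio of dKO to WT of 0.17 over the window of Tcf7 and -0.30 over that of Lef1. Their promoter islands were past 1.5-fold lower, at -0.94 for Tcf7 and -1.74 for Lef1, and per covered kb at 0.38 and -0.34. These promoter islands spanned 28 to 104.4 kb, which does not resolve a deleted part of a gene, so the values are no check of the deletion.

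All 9 loci carried H3K27ac in both genotypes. Islands were summed over each gene window, the gene body and 50 kb upstream of the 5'-most start. Hdac4 had the most, with 761 CPM in WT and 811 in dKO. Next came Hdac1 (255 in WT and 219 in dKO), Hdac7 (251 and 403), Kat2b (176 and 155), Hdac3 (172 and 130), Ep300 (127 and 135) and Crebbp (108 and 116). Hdac2 (48.0 in WT and 37.2 in dKO) and Hdac9 (22.1 and 42.7) had the least. The window is longer for a longer gene, but the sums did not follow gene length. Hdac4 is 219.6 kb long, whereas Hdac9 is 481.3 kb long and had the least in WT. Hdac1 is 26.6 kb long, and 16541 of its 21089 counts in WT lay in a region that holds the promoters of Lck and Fam167b. The sums therefore order whole loci with their neighbours and not the marking of promoters.

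**Figure D1:**
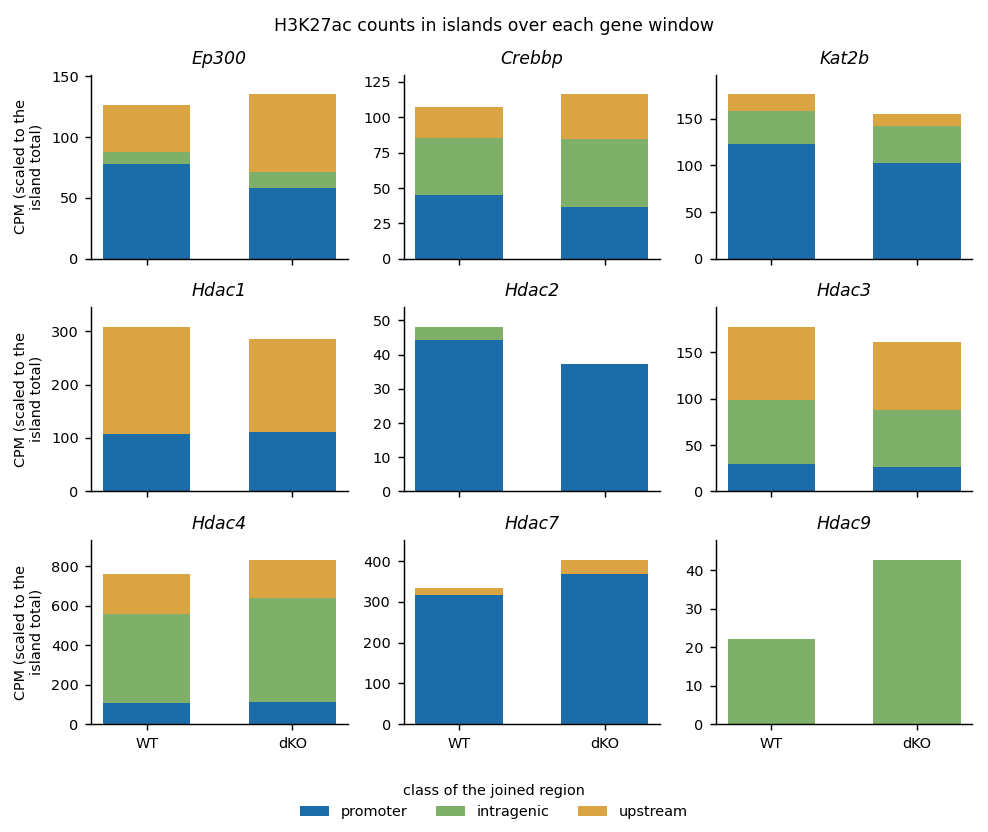
Bars show H3K27ac CPM (counts scaled by the total of each list) over each gene window in the pooled WT and dKO lists, divided by the class of the joined region they lie in (promoter, intragenic or upstream), with a separate vertical axis from 0 for each gene and no replicate error. Ep300 and Crebbp had less at the promoter and more upstream in dKO, Hdac4 and Hdac7 were higher in total, and Hdac9 had intragenic counts alone.

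Hdac7 and Hdac9 were past 1.5-fold higher in dKO over the gene window. Hdac7 had 20708 counts in WT and 23255 in dKO, a log2 ratio of 0.69 (95% counting interval 0.66 to 0.71). Hdac9 had 1826 in WT and 2463 in dKO, a log2 ratio of 0.95 (0.86 to 1.04). In a bulk population, more cells with the mark and more of it in each cell cannot be told apart. The other 7 genes were within 1.5-fold, and 0 genes were past it in the lower direction. Over all 16385 protein-coding genes with islands of both lists, 11.5% were past 1.5-fold higher and 11.5% past 1.5-fold lower. The 2 of 9 genes, both higher, stand beside the 11.5% higher among genes at large, and a difference from that share was not tested.

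The other 7 genes had log2 ratios of 0.11 for Crebbp (0.07 to 0.16), 0.10 for Ep300 (0.05 to 0.14), 0.09 for Hdac4 (0.08 to 0.11), -0.18 for Kat2b (-0.22 to -0.15), -0.22 for Hdac1 (-0.25 to -0.19), -0.37 for Hdac2 (-0.44 to -0.29) and -0.40 for Hdac3 (-0.44 to -0.36). By counts of the islands of each list, the 3 class I genes were thus below 0 and the 3 class IIa genes above it. This was no division by class, since Hdac5, a further class IIa gene outside the 9, was at -0.53 over its window. Hdac1 was also at 0.11 without islands at promoters of other genes, and Hdac3 at 0.01 with islands clipped to the window. The median of the 9 genes was 0.09, beside -0.03 over all genes with a middle range of -0.31 to 0.26, and the values of Hdac2 and Hdac3 lay just below that range. This order was not that of the marking per covered kb. Divided by the length that islands covered, 8 of 9 genes were below 0, from -0.30 for Ep300 to -0.06 for Kat2b, and Hdac4 alone was above it at 0.14. Their median per covered kb was -0.22, beside -0.16 over all genes.

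**Figure D2:**
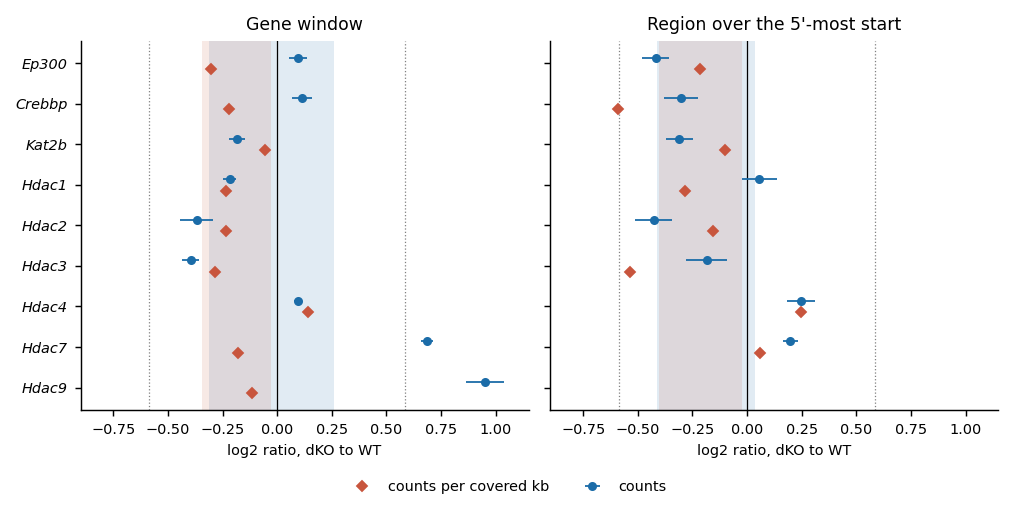
Points give the log2 ratio of dKO to WT for each gene, as counts (circles, with 95% counting intervals) and as counts per covered kb (diamonds), over the gene window and over the region at the 5'-most start; shaded bands mark the middle range of all genes for each measure and dotted lines mark 1.5-fold. Hdac7 and Hdac9 were past 1.5-fold by counts over the window and not per covered kb, and Hdac4 was above 0 by both measures in both panels.

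The values of Hdac7 and Hdac9 came with wider coverage. The WT islands of Hdac7 covered 75.8 kb and its dKO islands 138.4 kb, and per covered kb the log2 ratio was -0.18. At the 3' end of the gene, a stretch that reaches over the promoters of Slc48a1 and Rapgef3 was 1 island in dKO and 2 islands in WT, of which 1 lay outside the window. When islands of both lists that shared at least 1 bp were joined into regions and classed together, the ratio of Hdac7 was 0.27 (0.25 to 0.30), still with 113.8 kb covered in WT and 138.4 kb in dKO. Hdac9 stayed at 0.95 with joined regions, but its coverage was 12.8 kb in WT against 26.8 kb in dKO, and per covered kb the ratio was -0.11.

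The promoters were compared over the joined region at the 5'-most start, which is the same region in both lists although the islands within it cover different lengths, except in Hdac4. For Ep300 (chr15:81410201-81420800), WT had 6443 counts on 10.6 kb and dKO 3362 on 9.2 kb, which is a log2 ratio of -0.42 (-0.48 to -0.36). For Crebbp (chr16:4211601-4218200), WT had 3731 counts on 5.4 kb and dKO 2112 on 6.6 kb, which is a ratio of -0.30 (-0.38 to -0.22). The Ep300 and Crebbp promoters were densely marked, above 91.9% and 92.3% of all genes in mean counts per covered kb, whereas that of Kat2b, the other writer, was above 58.8%.

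Kat2b had 6086 counts in WT and 3424 in dKO over its start region, a log2 ratio of -0.31 (-0.37 to -0.25). Among the class I genes, Hdac2 had 3478 and 1803 counts, a ratio of -0.43 (-0.51 to -0.35), Hdac3 had 2471 and 1516, a ratio of -0.19 (-0.28 to -0.09), and Hdac1 had 2947 and 2137, a ratio of 0.06 (-0.03 to 0.14). The start region of Hdac3 also spans promoters of Fchsd1 and Rell2, so its counts cannot be assigned to Hdac3 alone. Hdac4 and Hdac7, in contrast, were above 0. Hdac4 had 4263 counts in WT and 3532 in dKO over 20 kb in both lists, a ratio of 0.25 (0.18 to 0.31), and Hdac7 had 15666 and 12528 over 47.6 kb and 52.4 kb, a ratio of 0.20 (0.16 to 0.23). The Hdac7 region also holds the promoters of Vdr and Gm17532. Hdac9 had no island within 1 kb of any of its 3 annotated starts in either list.

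None of the 8 start regions was past 1.5-fold, beside 14.1% of 13317 genes. The median over all genes was -0.19 (middle range -0.41 to 0.04). It was -0.46 (-0.57 to -0.35) for the 1332 genes with the highest mean density (10% of them) and -0.04 (-0.25 to 0.16) for the 6658 with the lowest (50%). The value of Ep300 was therefore close to that of other densely marked promoters, and that of Crebbp was above the middle range of those 1332 genes. Hdac4 was higher than 89.2% of genes and Hdac7 than 87.0%. The Hdac4 start region was above only 35.0% of genes in mean density, and its ratio of 0.25 lay above the middle range of those 6658 genes. Per covered kb, the start regions had log2 ratios of -0.59 for Crebbp, -0.54 for Hdac3, -0.29 for Hdac1, -0.21 for Ep300, -0.16 for Hdac2, -0.10 for Kat2b, 0.06 for Hdac7 and 0.25 for Hdac4. The median over all genes on this scale was -0.20, and Hdac4 was higher than 96.0% of them. It was -0.42 (-0.64 to -0.21) for the 1332 densest genes, a range that holds the value of Crebbp.

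With promoter islands taken at every annotated start of a gene, and each list classed by itself, 3 of 8 genes were past 1.5-fold (Hdac7 at 1.06, Hdac4 at -0.72 and Kat2b at -0.90), beside 33% of 13484 genes. These 3 values followed from where the islands of each list broke. Once islands were joined over both lists, 0 of 8 were past 1.5-fold, beside 14.6% of 13748 genes, with 0.22 for Hdac7, 0.08 for Hdac4 and -0.26 for Kat2b. The direction of Hdac4 turned. The other 5 genes had promoter ratios, by islands of each list and by joined regions, of -0.42 and -0.42 for Ep300, -0.30 and -0.30 for Crebbp, -0.20 and 0.04 for Hdac1, -0.12 and -0.25 for Hdac2, and -0.19 and -0.19 for Hdac3.

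**Figure D3:**
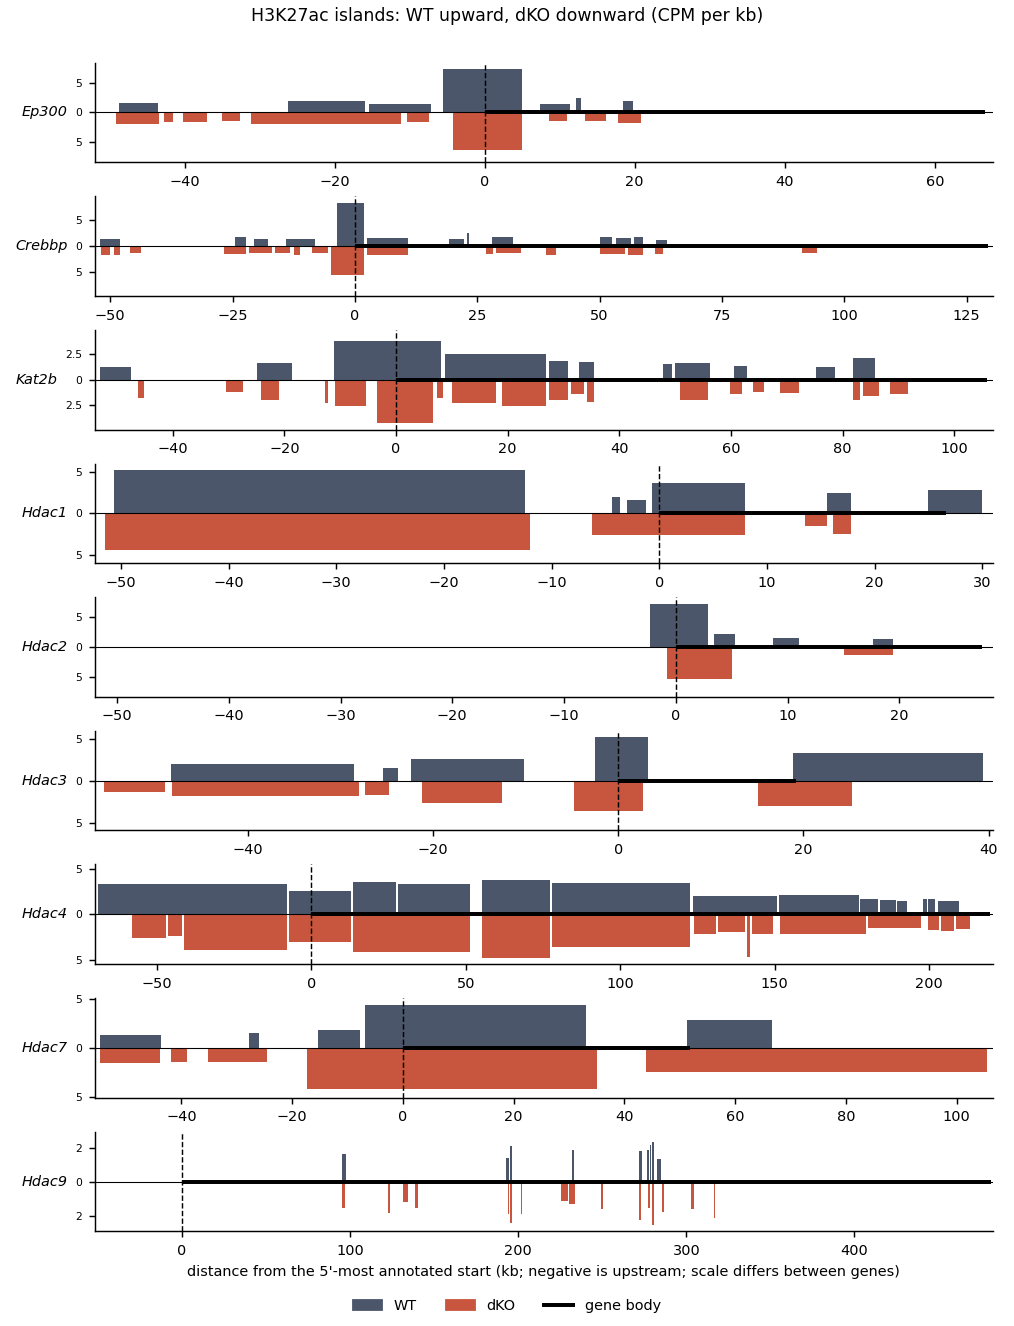
Each row maps the islands over 1 gene window by distance in kb from the 5'-most annotated start (dashed line; the thick line is the gene body), with WT islands drawn upward and dKO islands downward and their height giving CPM per kb. Ep300, Crebbp, Hdac2 and Hdac3 show a narrow, tall island at the start, Hdac4 and Hdac7 broad coverage of the gene, and Hdac9 scattered low islands away from its start.

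Within the gene bodies, 3 of the 6 genes with intragenic islands in both lists were past 1.5-fold by the islands of each list (Hdac9 at 0.95, Kat2b at 0.78 and Hdac3 at -1.18), beside 46.6% of 6710 genes. With joined regions, Hdac9 alone was past it, and Kat2b was at 0.14 and Hdac3 at -0.17. The Hdac3 value belonged to a region at its 3' end that also holds the promoter of Diap1, which was 1 island in WT and 2 in dKO. Ep300 was at 0.41 (0.27 to 0.56) and Crebbp at 0.26 (0.18 to 0.33) by both ways of summing. Hdac1 had no intragenic island, and Hdac2 had intragenic islands in WT alone, which joining reduced to 1 region of 303 counts. Hdac7 likewise had 1 in WT alone by the islands of each list, and none once joined regions were classed.

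Upstream of the start, Ep300 and Crebbp had a larger share of the counts in dKO. Ep300 had 3218 counts on 23.6 kb in WT, against 3693 on 35.6 kb in dKO, and a log2 ratio of 0.72 (0.65 to 0.79). This stretch held 3 regions found in dKO alone, of 111, 285 and 190 counts, from -42.8 to -32.6 kb relative to the start. Crebbp had 1813 counts on 15.2 kb in WT, against 1807 on 22 kb in dKO, and a ratio of 0.51 (0.42 to 0.61). Per covered kb, the ratios were 0.13 and -0.02. No other gene starts within 50 kb upstream of Ep300 or Crebbp. The promoter and the upstream stretch of Ep300 and of Crebbp thus lay on opposite sides of 0, with the sum over the window between them. Genes at large leaned the same way, with a median of -0.23 for promoter islands and 0.01 for upstream islands. The middle range upstream was -0.32 to 0.39 over 14097 genes, and both upstream values lay above it. Kat2b did not share this by joined regions, in which both its promoter (-0.26) and its upstream stretch (-0.41) were below 0.

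Upstream counts of the other genes were partly those of neighbours. Kat2b had an upstream ratio of 0.68 by the islands of each list and -0.41 by joined regions, because its promoter coverage was broken into more islands in dKO. Hdac1 had a ratio of -0.22, from a stretch that holds the promoters of Lck and Fam167b and 16541 of its 16908 upstream counts in WT. Hdac3 was at 0.02 (Arap3, Fchsd1 and Rell2 start within its window) and by joined regions at -0.09. Hdac4 was at -0.23, and at -0.06 by joined regions. Hdac7 was at 0.20 by the islands of each list. By joined regions it was at 1.03 (0.94 to 1.13), with 1449 counts in WT and 2069 in dKO and 0.10 per covered kb. The middle range of all genes upstream was -0.24 to 0.31 by joined regions, and the share past 1.5-fold was not computed. Hdac2 and Hdac9 had no island in the 50 kb upstream.

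Hdac4 was the locus with the widest coverage. By the islands of each list, its coverage was 262.4 kb in WT against 254.2 kb in dKO. With joined regions it was 262.4 kb against 264.6 kb, and 8 of its 9 joined regions were found in both lists. Where island borders are identical in both lists, the counts compare the same bases and cannot differ through width, and 7 regions over the 9 genes were of this kind, 3 of them in Hdac4. The region at chr1:93967801-93989600 in the gene body had 6712 counts in WT and 5978 in dKO, a log2 ratio of 0.35 (0.30 to 0.40). The region over its start (chr1:94032201-94052200) was the one given above at 0.25. The last of them, chr1:93922401-93967200, had 12621 and 9310 counts, a ratio of 0.08 (0.04 to 0.12).

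The 3124 regions of the genome with identical borders had a median of -0.04 (middle range -0.23 to 0.12), and 44.1% were above 0. All 7 regions of the 9 genes were above 0. The other 4 were intragenic, with 0.21 in Crebbp (0.07 to 0.34), 0.09 in Kat2b (-0.10 to 0.28), and 0.13 (-0.16 to 0.42) and 0.20 (-0.14 to 0.53) in Hdac9. The interval of the latter 3 included 0. Among the 220 such regions of 10 kb or wider, the Hdac4 region at 0.35 was higher than 95.9%.

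Hdac9 was the gene without a promoter island among the 9. Its islands were narrow, lay between 95.2 and 317.4 kb downstream of the 5'-most start, and held between 88 and 319 counts per joined region and list. Of its 17 joined regions, 7 were found in both lists, 1 in WT alone and 9 in dKO alone. The regions found in dKO alone held 56.4% of its dKO counts. Among the 7 regions in both lists, 1 was past 1.5-fold higher (1.28) and 2 were past it lower (-0.68 and -0.86). The ratio of the gene therefore rested on regions with an island in dKO alone, where the WT list gives no value rather than a value of 0.

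Over the 9 genes together there were 86 joined regions, of which 53 were found in both lists, 9 in WT alone and 24 in dKO alone. The shares of 10.5% and 27.9% found in 1 list compare with 12.8% and 28.1% of all 76633 regions. These regions were small. They held 1.38% of the WT counts and 3.43% of the dKO counts over the genes, with at most 563 counts in WT (Kat2b) and 285 in dKO (Ep300). Hdac3 had no region found in 1 list alone, and Hdac1, Hdac2, Hdac4 and Hdac7 had 1 each.

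Of the 53 regions in both lists, 9 were past 1.5-fold higher and 3 lower. These 12 were 22.6% of the regions, beside 25.7% of 45322 regions in all. In all 12 the covered length differed in the same direction as the counts, as it did in 97.7% of such regions across the genome. The largest ratio lay upstream of Hdac7 at chr15:97699401-97710200, where WT had 223 counts on 1.8 kb and dKO 858 on 10.8 kb, which is a log2 ratio of 2.46 (2.25 to 2.68). Per covered kb it was -0.12. A region inside Hdac2 (chr10:36709401-36713800) had 191 and 344 counts, a ratio of 1.37, and 0.08 per covered kb. Per covered kb, the Crebbp start region at -0.59 was the only one of the 53 past 1.5-fold, or 1.89%, beside 5.68% of all regions.

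**Figure D4:**
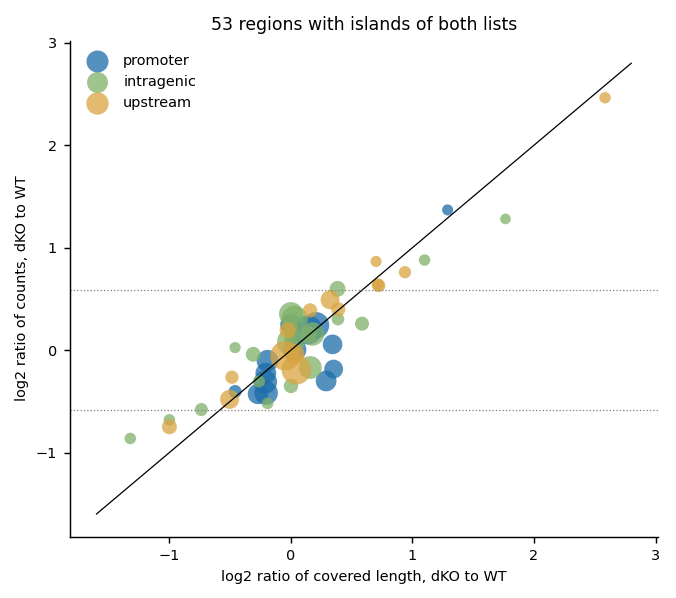
Each point is 1 of the 53 joined regions of the 9 genes with islands of both lists, with the log2 ratio of covered length on the horizontal axis and of counts on the vertical axis (larger points hold more WT counts; the line marks equal ratios and dotted lines 1.5-fold). The 12 regions past 1.5-fold lie near the line, so that their covered length differed along with their counts.

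The core bound by Tcf1 and Lef1 was searched in the whole joined regions, also where these reached past the gene window. It occurred 111 times in the 86 regions, or 1.33 times per 10 kb, beside 1.63 per 10 kb over all regions, and 50% of the regions held it, beside 50.2% in all. By gene, the density ran from 0.69 per 10 kb for Hdac2 to 1.61 for Crebbp. In regions found in WT alone there were 5 matches in 9 regions (2.48 per 10 kb, beside 1.79 for all such regions), and in those found in dKO alone 6 matches in 24 regions (1.18, beside 1.67). A match is a short string and not a binding site, and counts this small describe these regions only.

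Matches from the widest region found in WT alone and from the region with the largest ratio are shown with 10 bases on either side, so that the core can be seen in its context. The core is in capitals and each sequence is written on the strand that reads ATCAAAG. The first pair lies upstream of Kat2b, at chr17:53653977-53653983 and chr17:53654690-53654696 (both on the minus strand), in the region chr17:53653201-53658800 that had 563 counts in WT and no island in dKO. This region overlaps the gene window only in part, and both matches lie past the 50 kb, at -52.2 and -51.5 kb.
Kat2b, first match: tatggagaccATCAAAGtccaatgtgg
Kat2b, second match: cagacctggcATCAAAGgagtttcagg

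The others lie in the region upstream of Hdac7 with the log2 ratio of 2.46, at chr15:97701272-97701278 (minus strand), chr15:97701811-97701817 (plus strand) and chr15:97705036-97705042 (plus strand).
Hdac7, first match: tttgcagagaATCAAAGgagcgacgtc
Hdac7, second match: tggtaggactATCAAAGccgcagggat
Hdac7, last match: tctgtggaacATCAAAGttggccagat

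The core was thus present both in a region found in WT alone and in a region with higher counts in dKO.

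Islands within 12.5 kb of each other were stitched, as done for SEs, and the stitched stretches were ranked by counts. Of these, 1138 of 14376 in WT and 973 of 12919 in dKO lay above the point where the rank curve has a slope of 1. The share of all genes that meet a stretch above that point was not computed. Hdac4 lay in such a stretch in both lists, at rank 53 in WT and 63 in dKO, and this stretch also reached past the gene window, to 462.4 kb in WT and 609.4 kb in dKO. Hdac1 did so too, at ranks 333 and 57, in a stretch of 193.2 kb in WT against 658 kb in dKO. In both lists this stretch also holds Lck. Ep300 (rank 2151 in WT and 785 in dKO) and Hdac7 (rank 447 in dKO) lay above that point in dKO alone. In WT, Hdac7 met a pair of stretches, of rank 1361 over its start and of rank 1281 at its 3' end, which the dKO stretch joined. The stretch of Ep300 was 46 kb long in WT and 168.2 kb in dKO, and those of Hdac7 were 61 and 89.2 kb in WT and 229.6 kb in dKO, so the ranks compare stretches of unequal length. Crebbp, Kat2b, Hdac2, Hdac3 and Hdac9 were below that point in both lists.

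Other genes of the acetylation machinery were examined as 4 lists, 51 genes in all, each with islands of both lists over its window. Of 10 other acetyltransferases (Kat2a, Kat5, Kat6a, Kat6b, Kat7, Kat8, Hat1, Ncoa1, Ncoa2 and Ncoa3), none was past 1.5-fold in either direction over the window, and the median log2 ratio was 0.05. By promoter islands, each list classed by itself, 1 of the 10 was past 1.5-fold higher and 5 lower, with a median of -0.49. Over all genes, 33% were past 1.5-fold by that measure, which depends on where islands break. Of 7 acetyl-lysine readers (Brd1, Brd2, Brd3, Brd9, Brdt, Mllt1 and Mllt3), which bind the acetylated residue, none was past it over the window either, and the median was -0.03. By promoter islands, 2 of the 7 were past 1.5-fold lower.

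Of 12 other deacetylases, 3 were past 1.5-fold higher and 1 lower, with a median of -0.10. Those higher were Sirt3 (1.37), which encodes a mitochondrial deacetylase, Sirt7 (0.72), which encodes a nucleolar one, and Hdac10 (0.61), a class IIb gene. Their ratios per covered kb were 0.23, -0.24 and -0.40. The one lower was the class I gene Hdac8 (-1.23, and 0.17 per covered kb). Of 22 subunits of deacetylase complexes, Mta1 of NuRD (0.86, and 0.03 per covered kb) and Sin3b of the Sin3 complex (0.79, and -0.05) were past 1.5-fold higher, and Tbl1x of the NCoR complex (-0.94, and -0.03) was past it lower, with a median of 0.07. Hdac8 and Tbl1x lie on chromosome X, where the median was -0.61 over 433 genes, beside -0.01 over autosomal genes. None of the 9 enzyme genes lies on chromosome X. By promoter islands, 1 of the 12 deacetylases was past 1.5-fold higher and 2 lower. Of 21 complex subunits with promoter islands in both lists, 3 were higher and 5 lower.

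**Figure D5:**
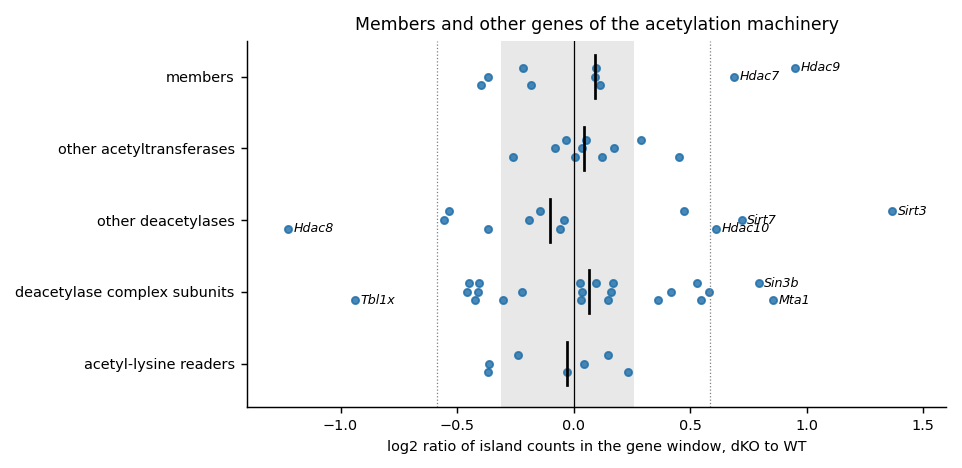
Each point is the log2 ratio of dKO to WT island counts over 1 gene window, for the 9 genes and for 4 lists of related genes, with the median of each row as a black bar, the middle range of all genes in grey, dotted lines at 1.5-fold and names for the genes past it. Medians of the 5 rows lay between -0.10 and 0.09, and the genes past 1.5-fold were spread over both directions in the deacetylases and complex subunits.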

How the data were processed

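H3K27ac ChIP-seq of naive CD8+ T cells was analysed from 2 pooled island lists (4 WT and 3 dKO samples; the 2 input samples gave no values). The authors aligned reads to mm9 with Bowtie2 2.2.5, required a mapping quality over 10, and ran SICER 1.1 on the pool of each genotype (window 200 bp, gap 400 bp, FDR 0.01). The deposited counts are whole read counts for each island, not scaled for depth or width, and a stretch without an island has no count. Counts follow island width, and scaling to the list total removes differences in enrichment along with depth. Pooling leaves no replicate spread. No molecular identifiers are described, and whether PCR duplicates were removed is not given in the sources used here.

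Genes came from GENCODE vM1 on NCBIM37 (mm9), with entries of 1 symbol joined (2 for Hdac4). Of the 51 related genes, 4 were found under older symbols; 1 further gene of these lists is not reported here. Islands over the gene body and 50 kb upstream were summed in each list, divided by its total, and classed as promoter (within 1 kb of any annotated start of the gene), intragenic or upstream. Islands and joined regions that reached past the window were taken whole. A ratio of 1.5-fold was the rule of size. Islands sharing at least 1 bp were joined as regions; this, the regions at the 5'-most start and the regions of identical borders were added after values were seen. All 9 genes are given with values, and of each related list the genes past 1.5-fold over the window, at most 4, and Hdac5. The genes and lists were chosen with earlier results of these data known. Sequences were read from the NCBIM37 genome; the promoter table at hand is of another build and was not used. Sequence on the chromosome of Hdac3 is not shown. Alternatives changed the scaling, the measure, the window, the promoter definition, the fold, the filter on low islands and the treatment of neighbours. Overlap and ratio steps were tested on simulated data. Tools were Python 3.11.15, numpy 2.4.6, pandas 2.3.3, scipy 1.17.1 and matplotlib 3.10.9.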

Additional observations from a re-analysis of the deposited data

How the results depend on the processing

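No paired analysis was possible because each list pools the replicates of a genotype, and for the same reason no replicate could be left out. The 2 genes past 1.5-fold higher over the gene window became 0 per covered kb (Hdac7 at -0.18 and Hdac9 at -0.11) and 0 at 2-fold. They became 1 with islands clipped to the window, 1 with joined regions, and 1 without islands under 200 counts, where Hdac9 was at -0.71. The count lower was 1 over the gene body alone, 1 to 10 kb upstream and 1 without islands under 200 counts, beside 0. The median of 0.09 became 0.16 and 0.17 under the other scalings, which raised every ratio by 0.07, and -0.22 per covered kb, -0.20 over the gene body alone, -0.16 to 10 kb upstream and -0.23 without islands under 200 counts. The 3 promoter differences became 1 at 2-fold, 1 with promoters of 2 kb either side, 0 with joined regions and 0 at the 5'-most start alone. The 3 intragenic differences became 0 per covered kb, 1 at 2-fold, 1 with joined regions and 5 with starts of protein-coding transcripts only. Without islands at promoters of other genes, Hdac3 was at 2.43 and Hdac7 at 2.81, from the few islands that were left. Over 10 alternatives, Hdac2, Hdac4 and Kat2b kept their direction, and Ep300 ran from -0.38 to 0.17 and Crebbp from -0.22 to 0.30. Apart from these constructions, causes were not tested. Depth limits the small regions most, since the lowest island count was 58 in WT and 43 in dKO.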
